A study of Arabidopsis thaliana with 8 samples.

Results

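In Arabidopsis seedlings that overexpress the trihelix transcription factor HRA1, 31 probe sets responded to 2 h of hypoxia although the mean of wild type Col-0 moved little or the other way. They were chosen by their own array values. The mean of the OE-HRA1 hypoxia arrays had to lie at least 1 log2 unit from the mean of the OE-HRA1 air arrays, with no overlap between those arrays, while the Col-0 mean changed by less than 0.5 in that direction. Of 22746 non-control probe sets, 24 met this rule as rising and 7 as falling. All 4 groups entered the choice, so the changes below describe how the members were chosen and are not independent evidence that the genotypes differ.

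The 8 ATH1 arrays hold total RNA of whole seedlings aged 7 d in 4 groups of 2. OE-HRA1 seedlings carry 35S:HRA1:FLAG, driven throughout the plant by a viral promoter, in ecotype Col-0, and were sampled after 2 h of argon-induced hypoxia (2HS) and after 2 h in open chambers in air (2NS). Col-0 seedlings without the transgene received both treatments too. Each OE-HRA1 group holds 1 array of transgenic line #1 and 1 of line #2, so line and replicate cannot be told apart, and the Col-0 arrays are labelled replicates 1 and 2 without a statement of what separates them. The study's methods treat the 2 lines as biological replicates. Deviations between the arrays of a group may be biological or technical, and cannot be told apart here. For the Col-0 arrays used as hypoxia arrays, 1 label (the source name) gives the air treatment, while title, description and treatment give hypoxia. HRA1 itself (AT3G10040) read 12.19 and 12.02 log2 units in OE-HRA1 under hypoxia and 12.98 and 13.09 in OE-HRA1 in air. In Col-0 it read 11.74 and 12.10 under hypoxia and 7.20 and 7.00 in air. So HRA1 was high in both lines in air, and the decrease of 0.93 under hypoxia kept HRA1 just outside the falling set.

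Plants deprived of oxygen switch to fermentation under the control of group VII ethylene response factors, and HRA1 is itself induced by low oxygen. The same low-oxygen episode overlaps with immune signalling, since calcium influx, reactive oxygen and mitogen-activated protein kinases serve both. Pathogenesis-related genes follow salicylic acid, whereas elicitor peptides, leucine-rich repeat receptors and calcium sensors act earlier. Growth genes such as the small auxin up RNAs (SAURs) and the ARGOS family raise cell expansion and organ size.

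Most hypoxia responses were shared between the genotypes. Of 484 probe sets that stood at least 1 log2 unit higher under hypoxia in OE-HRA1 without overlap of arrays, 343 also had a Col-0 change of at least 1, 117 one of 0.5 to 1, and the 24 members one under 0.5. Of 274 that stood lower, the corresponding numbers were 147, 120 and 7. The rule turned round, with a response in Col-0 and little in OE-HRA1, was met by 56 higher and 4 lower probe sets. The members therefore made up a small edge of the response, and the plot of the hypoxia change in both genotypes shows them beside a continuous cloud.

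**Figure D1:**
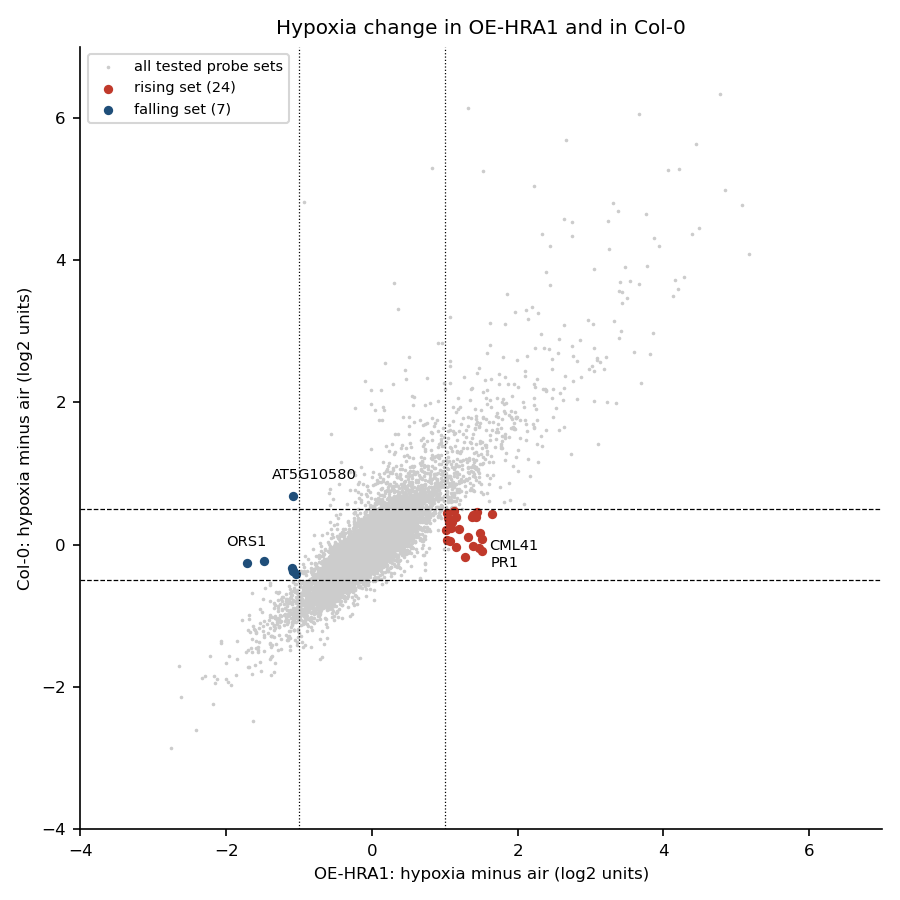
Change of each tested probe set under hypoxia in OE-HRA1 (horizontal axis) and in Col-0 (vertical axis), both as hypoxia minus air in log2 units. Dotted and dashed lines mark the bounds of 1 and 0.5. The 24 rising members lie at 1.02 to 1.64 in OE-HRA1 and the 7 falling ones at -1.72 to -1.04, next to the main cloud, and AT5G10580 is the falling member with a positive Col-0 change.

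In the rising set the hypoxia signal log2 ratio (SLR, hypoxia over air) had a median of 1.24 in OE-HRA1 (1.02 to 1.64) and of 0.23 in Col-0 (-0.17 to 0.47). Over all tested probe sets these medians were 0.01 and -0.01. The Col-0 change was below 0 in 5 members, and in 10 members both Col-0 hypoxia arrays still lay above both Col-0 air arrays, as 24% of all probe sets did. In the falling set the median SLR was -1.09 in OE-HRA1 (-1.72 to -1.04) and -0.32 in Col-0 (-0.42 to 0.69). There 4 members had both Col-0 hypoxia arrays below both Col-0 air arrays, against 29.8% of all probe sets. The Col-0 mean lay on the same side of 0 as that of OE-HRA1 in 19 rising and 6 falling members.

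A probe set was called where limma gave an |SLR| above 1 and a Benjamini-Hochberg adjusted p under 0.01. Under hypoxia in OE-HRA1, 14 of 24 rising members were called higher, beside 1.96% of all tested probe sets, and 6 of 7 falling members were called lower, beside 1.12%. Nothing is read from these shares, since the rule used that contrast. In Col-0 no member was called in either direction, where 2.02% of all probe sets were called higher and 0.829% lower. The Col-0 bound of the rule excluded a call in the direction of each set, so nothing is read from this either. At an unadjusted p under 0.05, 6 rising and 4 falling members passed in Col-0, beside 29% of all probe sets, and the rule used these values. Fewer members were called when 1 OE-HRA1 array was left out, except in the rising set without the line #1 hypoxia array. Such a fit leaves 1 array in its group, so a lost call cannot be told from lost precision. With 1 array left out, the SLR in OE-HRA1 ran from 1.02 to 1.23 for AT5G12940 and from 0.77 to 1.37 for NAC016. In the falling set it ran from -1.31 to -0.86 for AGP3.

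The direct comparison of the responses is the interaction, the hypoxia SLR in OE-HRA1 minus that in Col-0. It was positive in all 24 rising members (median 0.98, range 0.58 to 1.59) and negative in all 7 falling ones (median -0.78, range -1.78 to -0.62), as the rule requires. CML41 was the 1 rising member called by limma, and the 1 probe set called above 0 among all 22669 tested (0.00441%). No falling member was called, beside 0.159% called below 0 over all probe sets. At an unadjusted p under 0.05, 16 rising and 7 falling members passed, beside 5.72% of all probe sets, and the rule used these values. With the replicate as a block within each genotype, which takes out the difference between the OE-HRA1 lines and between the numbered Col-0 arrays, the called members were CML41, M17 and GSTU9 in the rising set and AT5G10580 in the falling set.

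CML41 (AT3G50770) encodes a calmodulin-like calcium sensor that acts at plasmodesmata, the channels between plant cells, in immune signalling. It read 7.34 and 7.39 in OE-HRA1 under hypoxia and 5.89 and 5.86 in OE-HRA1 in air, against 5.78 and 5.69 in Col-0 under hypoxia and 5.56 and 5.59 in Col-0 in air. Both OE-HRA1 hypoxia arrays stood above the other 6, and the 2 arrays of a group differed by 0.03 to 0.08. The hypoxia change was 2.81-fold in OE-HRA1 (SLR 1.49, SE 0.08) and 1.12-fold in Col-0 (SLR 0.16, SE 0.08), with an interaction of 1.33 (SE 0.11). The interaction call held without either Col-0 hypoxia array and was lost without any 1 of the other 6 arrays, with an SLR of 1.29 to 1.37 throughout.

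Of 14 listed calcium sensors and transporters 9 were measured, CML41 included. Under hypoxia 4 were called higher in OE-HRA1 and 2 in Col-0, beside 1.96% and 2.02% of all tested probe sets. Some of the 9 were named only through the study's table of differentially expressed genes, so the counts do not stand for the family. The median SLR was 1.09 in OE-HRA1 and 0.66 in Col-0. CML38, a calmodulin-like protein of hypoxia-induced RNA granules, had an SLR of 4.78 in OE-HRA1 and 6.33 in Col-0, and under hypoxia it was called lower in OE-HRA1. TCH3, a touch-induced calmodulin-like gene, had 1.97 in OE-HRA1 and 1.79 in Col-0. CML37 had 1.09 in OE-HRA1 and 0.62 in Col-0, and the vacuolar calcium exchanger CAX3 had 0.77 in OE-HRA1 and 0.46 in Col-0.

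**Figure D2:**
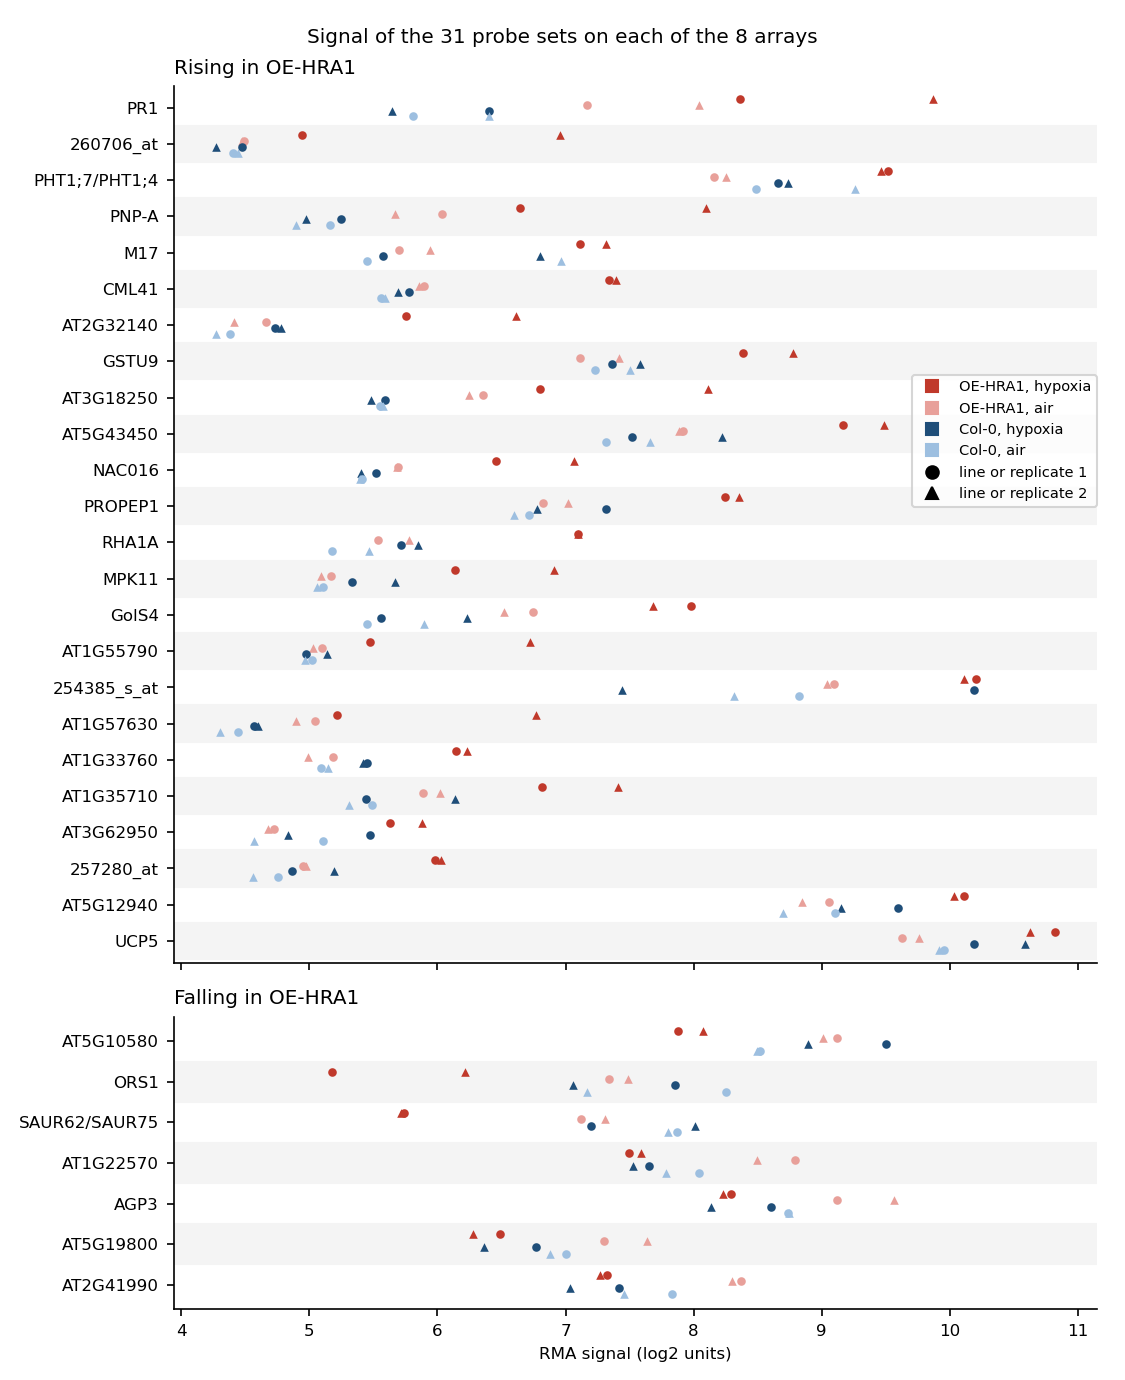
RMA signal in log2 units (horizontal axis) of the 24 rising and 7 falling probe sets (rows) on each array. Colours give genotype and treatment, circles line #1 or replicate 1 and triangles line #2 or replicate 2. In 23 of 24 rising rows both OE-HRA1 hypoxia arrays lie to the right of the other 6 arrays. In 4 falling rows the OE-HRA1 air arrays, not the hypoxia arrays, stand apart. The rule used these arrays and the share over all probe sets was not counted, so nothing is read from these numbers.

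PR1 and PNP-A, which encode secreted proteins, had interactions of 1.59 (SE 0.71) and 1.44 (SE 0.55), neither of them called. PR1 (AT2G14610), the classical marker of salicylic acid defence, read 8.36 and 9.87 in OE-HRA1 under hypoxia and 7.17 and 8.04 in OE-HRA1 in air. In Col-0 PR1 read 6.40 and 5.64 under hypoxia and 5.81 and 6.40 in air. PR1 in the lines therefore exceeded PR1 in Col-0 in both treatments, by 3.10 under hypoxia and 1.5 in air (SE 0.50), and the arrays of each group differed by 0.60 to 1.51. Its hypoxia SLR of 1.51 in OE-HRA1 was not called. It was called with the replicate block within each genotype and not with the block shared by all groups, and was 0.76 without the line #2 hypoxia array and 2.27 without that of line #1. PNP-A (AT2G18660), a plant natriuretic peptide that moves through the apoplast, read 6.64 and 8.09 in OE-HRA1 under hypoxia and 6.03 and 5.67 in OE-HRA1 in air. In Col-0 PNP-A read 5.24 and 4.97 under hypoxia and 5.16 and 4.90 in air. Its change was 0.61 in line #1 and 2.42 in line #2.

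Of the 6 measured genes of the salicylic acid list, PR1 included, the regulators WRKY70 and WRKY18 were called higher under hypoxia in OE-HRA1, and the same 2 were called in Col-0. WRKY70 had an SLR of 3.41 in OE-HRA1 and 3.69 in Col-0, and WRKY18 had 2.22 in OE-HRA1 and 1.96 in Col-0. ICS1, the isochorismate synthase of salicylic acid synthesis, read 7.79 and 8.30 in OE-HRA1 under hypoxia and 7.15 and 7.02 in Col-0 under hypoxia, a difference of 0.96 that was not called. No gene of this list was called between the genotypes in either treatment.

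Further members include PROPEP1 and MPK11, which act in immune signalling, and RHA1A. PROPEP1 (AT5G64900), the precursor of a wound and danger peptide, read 8.25 and 8.36 in OE-HRA1 under hypoxia and 6.82 and 7.02 in OE-HRA1 in air. In Col-0 PROPEP1 read 7.32 and 6.78 under hypoxia and 6.71 and 6.60 in air, so that replicate 1 reached 0.66 above the mean of air and replicate 2 only 0.12. MPK11 (AT1G01560), an immune mitogen-activated protein kinase, read 6.13 and 6.91 in OE-HRA1 under hypoxia and 5.33 and 5.67 in Col-0 under hypoxia, with all 4 air arrays between 5.06 and 5.17. RHA1A (AT4G11370), a RING-H2 finger protein, read 7.09 and 7.10 in OE-HRA1 under hypoxia and 5.54 and 5.78 in OE-HRA1 in air. In Col-0 RHA1A read 5.71 and 5.85 under hypoxia and 5.18 and 5.47 in air. All 3 were called for hypoxia in OE-HRA1, and RHA1A kept that call without any 1 array, as CML41 did.

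Among the other rising members, AT2G32140 and AT1G57630 encode Toll/interleukin-1 receptor domain proteins, and AT1G35710 and AT5G12940 encode leucine-rich repeat proteins. AT2G32140 had the highest hypoxia SLR of the set, 1.64 in OE-HRA1 against 0.43 in Col-0, with 1.09 in line #1 and 2.20 in line #2. AT1G57630 read 5.21 and 6.77 in OE-HRA1 under hypoxia and 5.04 and 4.90 in OE-HRA1 in air, so that line #1 barely moved. AT1G35710, a receptor-like kinase, had 1.16 in OE-HRA1 and 0.39 in Col-0, where only replicate 2 under hypoxia (6.14) stood above the other Col-0 arrays (5.31 to 5.49). AT5G12940 read 10.11 and 10.03 in OE-HRA1 under hypoxia and 9.60 and 9.15 in Col-0 under hypoxia. Its Col-0 SLR of 0.47 was the nearest to the bound of the rising set.

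In the list of 5 measured pattern receptors and elicitor peptides, 3 were called higher under hypoxia in OE-HRA1, namely PROPEP1, BIK1 and MPK3. MPK3 was also called in Col-0, with an SLR of 1.38 in OE-HRA1 and 1.12 in Col-0, and the receptor kinase substrate BIK1 had 1.11 in OE-HRA1 and 0.87 in Col-0. FLS2, the flagellin receptor, was called lower in both genotypes, with -2.42 in OE-HRA1 and -2.61 in Col-0. The chitin receptor kinase LYK5 had 0.94 in OE-HRA1 and 0.38 in Col-0 and was not called. PROPEP1 was the 1 gene of this list called between the genotypes under hypoxia, and no interaction of the list was called.

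No gene of the list for camalexin, the indole phytoalexin of Arabidopsis, was a member. CYP71A12, a cytochrome P450 of the pathway, read 5.98 and 6.79 in OE-HRA1 under hypoxia and 4.29 and 4.45 in Col-0 under hypoxia, and was called higher. It already stood 1.30 above Col-0 in air, which was not called. CYP79B2, which makes indole-3-acetaldoxime, was called lower under hypoxia in Col-0 (SLR -1.60) and had -0.16 in OE-HRA1. PAD3, the last enzyme, had 0.36 in OE-HRA1 and -0.27 in Col-0, and the probe set shared by GSTF6 had 0.82 in OE-HRA1 and 0.65 in Col-0. Of the 4 measured probe sets of this list, CYP71A12 was the 1 called between the genotypes under hypoxia, and no interaction was called.

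Enzymes and transporters formed another group of members. GSTU9 (AT5G62480), a tau class glutathione transferase, read 8.38 and 8.78 in OE-HRA1 under hypoxia, while the other 6 arrays lay between 7.11 and 7.58. AT5G43450, a 2-oxoglutarate-dependent dioxygenase, read 9.17 and 9.49 in OE-HRA1 under hypoxia and 7.52 and 8.22 in Col-0 under hypoxia, with the air arrays at 7.92 and 7.89 in OE-HRA1 and 7.32 and 7.66 in Col-0. GolS4 (AT1G60470), a galactinol synthase of raffinose sugar synthesis, read 7.98 and 7.68 in OE-HRA1 under hypoxia and 6.75 and 6.52 in OE-HRA1 in air, against 5.56 and 6.23 in Col-0 under hypoxia and 5.45 and 5.89 in Col-0 in air. GSTU9 did not differ by genotype in air (-0.10, SE 0.17), whereas GolS4 was already 0.96 higher (SE 0.23), as measured without a call.

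UCP5 (AT2G22500), a mitochondrial dicarboxylate carrier, was the weakest of the set by interaction. It read 10.82 and 10.63 in OE-HRA1 under hypoxia and 9.62 and 9.76 in OE-HRA1 in air, against 10.19 and 10.58 in Col-0 under hypoxia and 9.96 and 9.91 in Col-0 in air. Replicate 2 of Col-0 under hypoxia thus lay just below line #2, and the OE-HRA1 arrays lay below Col-0 in air. A probe set shared by the phosphate transporters PHT1;7 and PHT1;4 (AT3G54700 and AT2G38940) read 9.51 and 9.46 in OE-HRA1 under hypoxia and 8.16 and 8.26 in OE-HRA1 in air. In Col-0 it read 8.66 and 8.74 under hypoxia and 8.49 and 9.26 in air, so it too was lower in OE-HRA1 in air, by 0.67 (SE 0.21). SPX1, a phosphate sensor protein of the same list, had 5.18 in OE-HRA1 and 4.08 in Col-0, and its air arrays read 7.11 and 7.17 for OE-HRA1 and 8.06 and 8.56 for Col-0. The 3 probe sets of the phosphate list were all called higher under hypoxia in OE-HRA1, and SPX1 and SPX3 in Col-0.

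AT3G62950 encodes a glutaredoxin, and its 5 measured CC-type relatives were set beside it. It read 5.63 and 5.88 in OE-HRA1 under hypoxia and 5.47 and 4.83 in Col-0 under hypoxia, where replicate 1 came close to line #1. Of the relatives, GRXS4 was called higher under hypoxia in OE-HRA1, with 1.20 in OE-HRA1 and 0.57 in Col-0, and none was called in Col-0. Of the 3 measured tau glutathione transferases, GSTU9 was the 1 called under hypoxia in OE-HRA1. GSTU25 had 1.16 in OE-HRA1 and 0.66 in Col-0 with Col-0 air arrays of 7.31 and 8.51, and GSTU20 had -0.17 in OE-HRA1 and -0.06 in Col-0.

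Transcription factors of the set were NAC016 (AT1G34180), a promoter of leaf senescence, and AT1G33760, of the AP2/ERF family. NAC016 read 6.46 and 7.06 in OE-HRA1 under hypoxia, and the 4 Col-0 arrays lay between 5.39 and 5.52. AT1G33760 read 6.14 and 6.23 in OE-HRA1 under hypoxia and 5.45 and 5.42 in Col-0 under hypoxia, with 4.99 to 5.19 on the air arrays of both genotypes. The change was called for both factors in OE-HRA1. In AT1G33760 all arrays of a group lay within 0.20, and its Col-0 hypoxia arrays stood above its Col-0 air arrays too.

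M17 (AT2G41260) encodes a late embryogenesis abundant protein of maturing seeds. It read 7.12 and 7.31 in OE-HRA1 under hypoxia and 5.70 and 5.94 in OE-HRA1 in air. In Col-0 it read 5.57 and 6.80 under hypoxia and 5.45 and 6.97 in air, so replicate 2 was high in both treatments, near line #1 under hypoxia. The Col-0 SLR of -0.02 thus averaged 2 replicates at different levels, and the interaction of 1.42 had an SE of 0.70. The seed storage transcripts that were measured stood higher in OE-HRA1, but each was named only through the study's table of differentially expressed genes. They do not stand for all such transcripts. Of 8 listed embryo markers 3 had a probe set, and their summed signal was 11.75 to 11.89 log2 units in OE-HRA1 under hypoxia and 11.26 to 11.42 in OE-HRA1 in air, against 9.77 to 9.85 in Col-0 under hypoxia and 9.79 to 10.41 in Col-0 in air. The cruciferin CRC was called higher in OE-HRA1 under hypoxia (3.13) and in air (2.01), and the oleosin OLEO1 under hypoxia (1.69). OLEO2 was called in neither treatment (1.19 under hypoxia, 0.75 in air). In air M17 did not follow these 3 genes, at -0.39 (SE 0.49), and their part in its hypoxia level was not tested. Of the 4 measured genes of the abscisic acid and desiccation list, M17 included, none was called in either genotype, and M10, a further late embryogenesis gene, had 0.18 in OE-HRA1 and 0.24 in Col-0.

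Shoot and root marker genes were both present, as labelled for whole seedlings. Of 5 shoot markers 1 had a probe set, the light-harvesting gene LHCB4.1, which read between 13.87 and 13.98 on all arrays. All 4 root markers had one. Their summed signal was 13.58 to 13.64 in OE-HRA1 under hypoxia and 13.96 to 14.10 in OE-HRA1 in air. In Col-0 it was 13.93 to 13.96 under hypoxia and 14.18 to 14.34 in air. PYK10 dominated that sum and differed between OE-HRA1 and Col-0 by -0.35 under hypoxia and -0.27 in air. The other root markers went the other way under hypoxia and in air, EXPA7 by 0.47 and 0.64, EXPA18 by 0.32 and 0.31, and PRX7 by 0.25 and 0.46. The root hair genes EXPA7, EXPA18 and PRX7 were called lower under hypoxia in both genotypes, with -1.33, -1.70 and -2.16 in OE-HRA1 and -1.17, -1.72 and -1.95 in Col-0. No root marker was called between genotypes, and the part of such markers in the members' values was not tested. In bulk seedlings, fewer cells of a type and less RNA per cell cannot be told apart.

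The remaining rising members are AT3G18250, AT1G55790 and 3 probe sets without a gene name here. AT3G18250 read 6.80 and 8.11 in OE-HRA1 under hypoxia and 6.36 and 6.25 in OE-HRA1 in air, with Col-0 between 5.48 and 5.59. The probe set assigned to AT1G55790 by the platform annotation is given as AT1G55780 in the study's table, so its gene is uncertain. It read 5.48 and 6.72 in OE-HRA1 under hypoxia, and the other 6 arrays lay between 4.97 and 5.13. Probe set 257280_at read 5.98 and 6.03 in OE-HRA1 under hypoxia and 4.87 and 5.19 in Col-0 under hypoxia, and was called in OE-HRA1. Probe set 254385_s_at read 10.21 and 10.11 in OE-HRA1 under hypoxia and 10.19 and 7.44 in Col-0 under hypoxia. Its place in the set rested on 1 Col-0 array, since replicate 1 equalled the OE-HRA1 lines.

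The measured change was not equal between the transgenic lines in every member. With 1 array of each line per treatment, a line difference cannot be told from array noise. The change reached 1 in both lines in 13 of 24 rising members, in line #2 alone in 10 and in line #1 alone in UCP5. The median gap between the lines was 0.31, against 0.14 over all probe sets. In 5 members line #2 carried most of the measured change, with 0.45 in line #1 and 2.48 in line #2 for probe set 260706_at. The corresponding values were 0.61 and 2.42 for PNP-A, 0.44 and 1.86 for AT3G18250, 0.38 and 1.69 for AT1G55790, and 0.17 and 1.87 for AT1G57630. None of these 5 was called for hypoxia in OE-HRA1. Over all tested probe sets 22 read at least 1 log2 unit higher in line #2 than in line #1 under hypoxia, and 6 of them were rising members. In air 1 did, and 42 were higher in line #1. The part of this 1 array in the set was not tested beyond the values given without it.

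**Figure D3:**
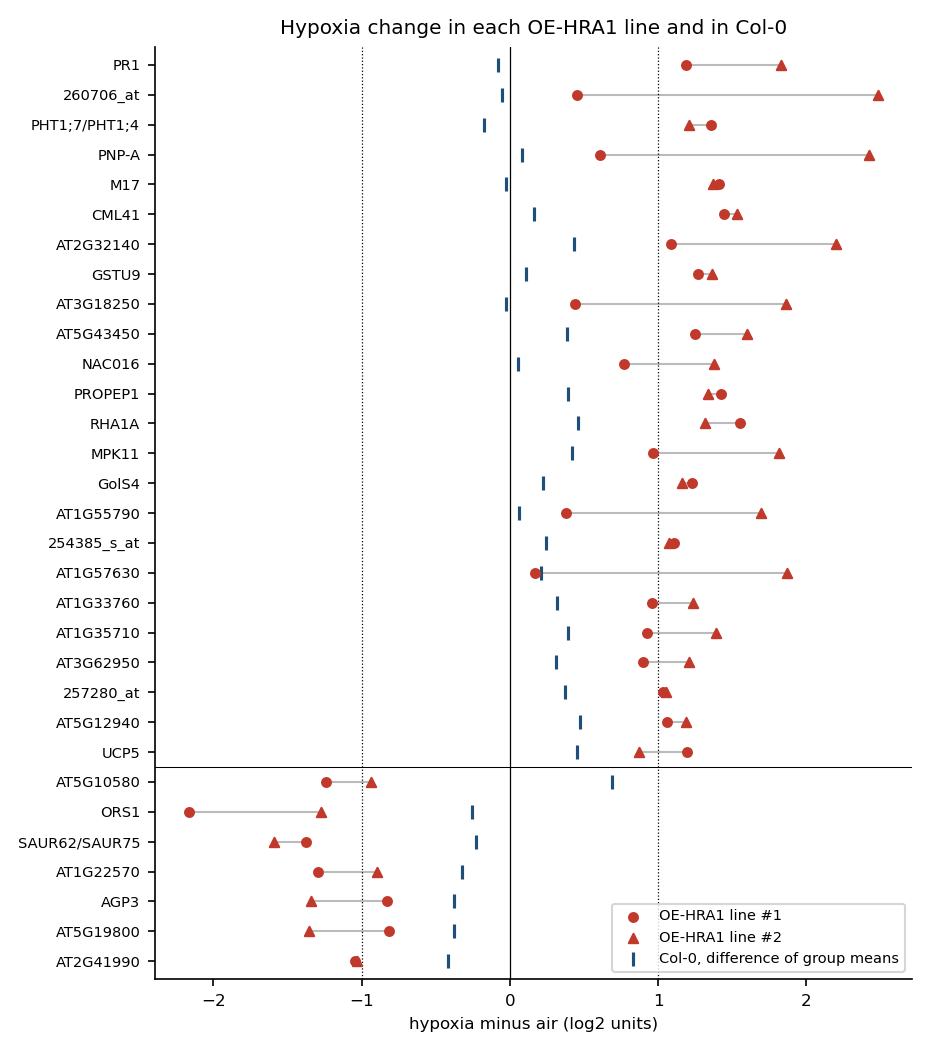
Hypoxia minus air in log2 units (horizontal axis) for each member (rows), with circles for OE-HRA1 line #1, triangles for line #2 and bars for the difference of the Col-0 group means. The lines lie close together for CML41, M17 and GolS4, and far apart for 260706_at (0.45 and 2.48), PNP-A and AT1G57630.

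Between the genotypes (OE-HRA1 over Col-0), the rising members had a median SLR of 1.31 under hypoxia (0.34 to 3.10) and of 0.28 in air (-0.67 to 1.5). In 23 of 24, both OE-HRA1 hypoxia arrays lay above both Col-0 hypoxia arrays, as in 29.5% of all probe sets, and in 254385_s_at they did not. The difference under hypoxia was called for CML41, GSTU9, AT5G43450, NAC016, PROPEP1, RHA1A and GolS4, 7 in all, beside 0.3% called higher over all probe sets. All 4 groups entered the rule, which requires a higher genotype difference under hypoxia than in air. The shares under hypoxia and in air are therefore not independent of it. In air 16 members had both OE-HRA1 arrays above both Col-0 arrays, as in 25.4% of all probe sets, and 2 had them below, UCP5 and the PHT1 probe set, as in 22.9%. No rising member was called in air by limma, where 0.0397% of all probe sets were called higher, and 6 passed an unadjusted p under 0.05, beside 14.6% of all probe sets. The genotype difference in air was at least 0.5 in 7 rising members. For these, PR1, GolS4 and PNP-A among them, the lines started above Col-0.

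**Figure D4:**
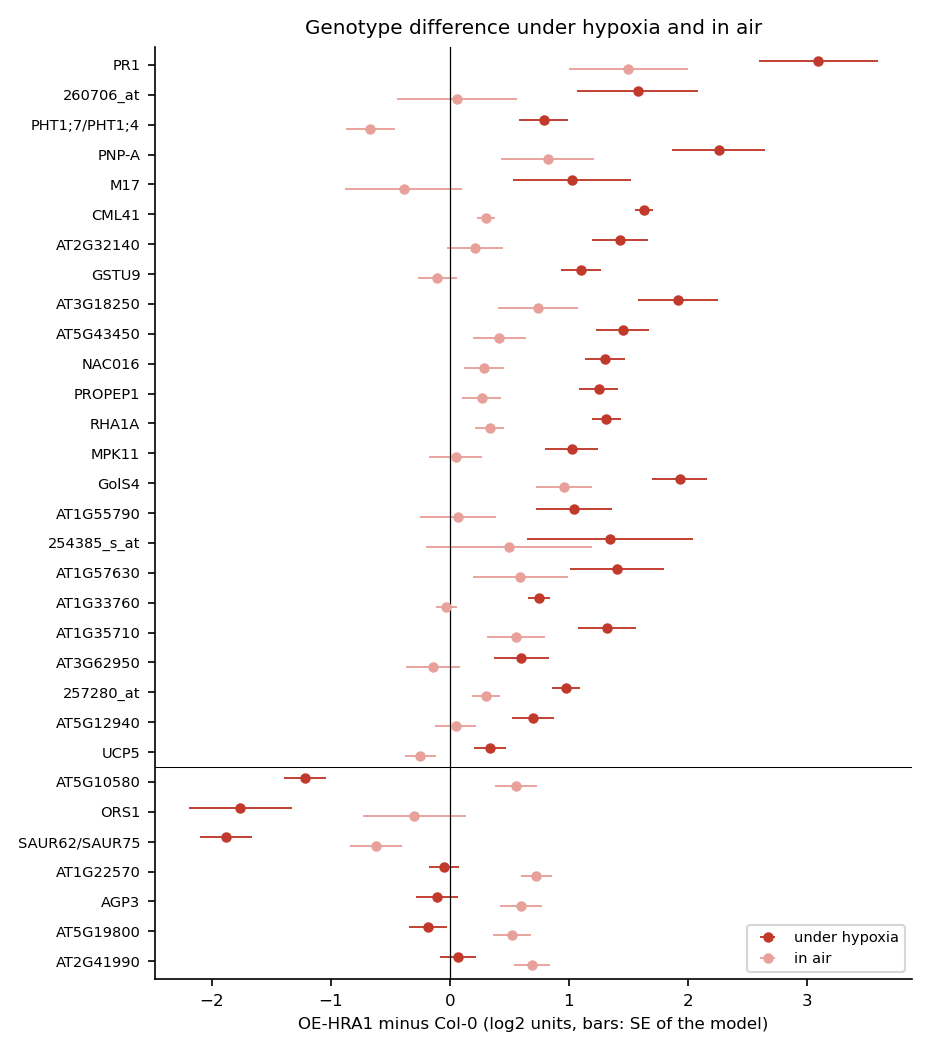
OE-HRA1 minus Col-0 in log2 units (horizontal axis) for each member (rows), with dark points for hypoxia and light points for air. Bars are the standard error of the limma model. Rising members lie furthest right under hypoxia (PR1 at 3.10), while AT1G22570, AGP3, AT5G19800 and AT2G41990 lie near 0 under hypoxia and at 0.52 to 0.73 in air.

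The falling set divides into 2 patterns. In AT5G10580, ORS1 and a SAUR probe set both OE-HRA1 hypoxia arrays lay below the other 6 arrays. In the other 4 the OE-HRA1 hypoxia arrays overlapped with those of Col-0, and both OE-HRA1 air arrays lay above the other 6. Over the whole set, 3 of 7 had OE-HRA1 below Col-0 under hypoxia, beside 23.9% of all probe sets, and 2 were called lower, AT5G10580 and the SAUR probe set, beside 0.626%. These arrays entered the rule, so nothing is read from these shares.

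AT5G10580 was the member that moved in opposite directions. It read 7.88 and 8.07 in OE-HRA1 under hypoxia and 9.12 and 9.01 in OE-HRA1 in air, against 9.50 and 8.89 in Col-0 under hypoxia and 8.51 and 8.49 in Col-0 in air. The groups of each genotype did not overlap. Its SLR was -1.09 in OE-HRA1 and 0.69 in Col-0 (SE 0.18 each), with an interaction of -1.78 (SE 0.25).

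The probe set shared by SAUR62 and SAUR75 (AT1G29430 and AT5G27780), small auxin up RNAs of cell expansion, read 5.74 and 5.72 in OE-HRA1 under hypoxia and 7.12 and 7.31 in OE-HRA1 in air. In Col-0 it read 7.20 and 8.01 under hypoxia and 7.87 and 7.80 in air, and its OE-HRA1 air arrays also lay below Col-0. The 5 other SAUR probe sets measured had hypoxia SLRs of -0.62 (SAUR63) to 0.32 (SAUR16) in OE-HRA1 and of 0.16 (SAUR63) to 0.98 (SAUR67) in Col-0. None of these 5 was called for hypoxia in either genotype. Over all 6, the median difference of OE-HRA1 from Col-0 under hypoxia was -1.18, against 0.03 over all tested probe sets. All 6 were named only through the study's table of differentially expressed genes, and 7 of 19 listed SAURs had a probe set. The median is therefore one of genes picked for changing and does not stand for the family. SAUR66 was called lower beside the shared probe set. The difference was -1.20 for SAUR66 and -1.34 for SAUR67, which read 6.96 and 7.07 in OE-HRA1 and 7.97 and 8.74 in Col-0 under hypoxia, without a call for SAUR67. These SAURs are near copies, and probe sets of such a family can share signal.

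ORS1 (AT2G41230, also OSR1) belongs to the ARGOS family, which raises organ size. It read 5.17 and 6.22 in OE-HRA1 under hypoxia and 7.34 and 7.49 in OE-HRA1 in air, against 7.85 and 7.06 in Col-0 under hypoxia and 8.25 and 7.17 in Col-0 in air. Its SLR of -1.72 in OE-HRA1 (SE 0.43) was the lowest of the set, with -2.16 in line #1 and -1.27 in line #2. It was not called, except with the replicate block within each genotype, and the genotype difference under hypoxia of -1.76 (SE 0.43) was not called either. Its relative ARL was called higher under hypoxia in both genotypes, by 1.07 in OE-HRA1 and 2.51 in Col-0, and read 8.59 and 8.72 in OE-HRA1 under hypoxia against 11.08 and 10.93 in Col-0 under hypoxia, a called difference of -2.35. ORS1 and the rising member M17 are 4 protein-coding genes apart on chromosome 2 in the RefSeq gene order of TAIR10.1, the 1 such pair of members within 10 genes. AT2G41250, which lies between them, had an SLR of 0.54 in OE-HRA1 and 0.45 in Col-0.

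**Figure D5:**
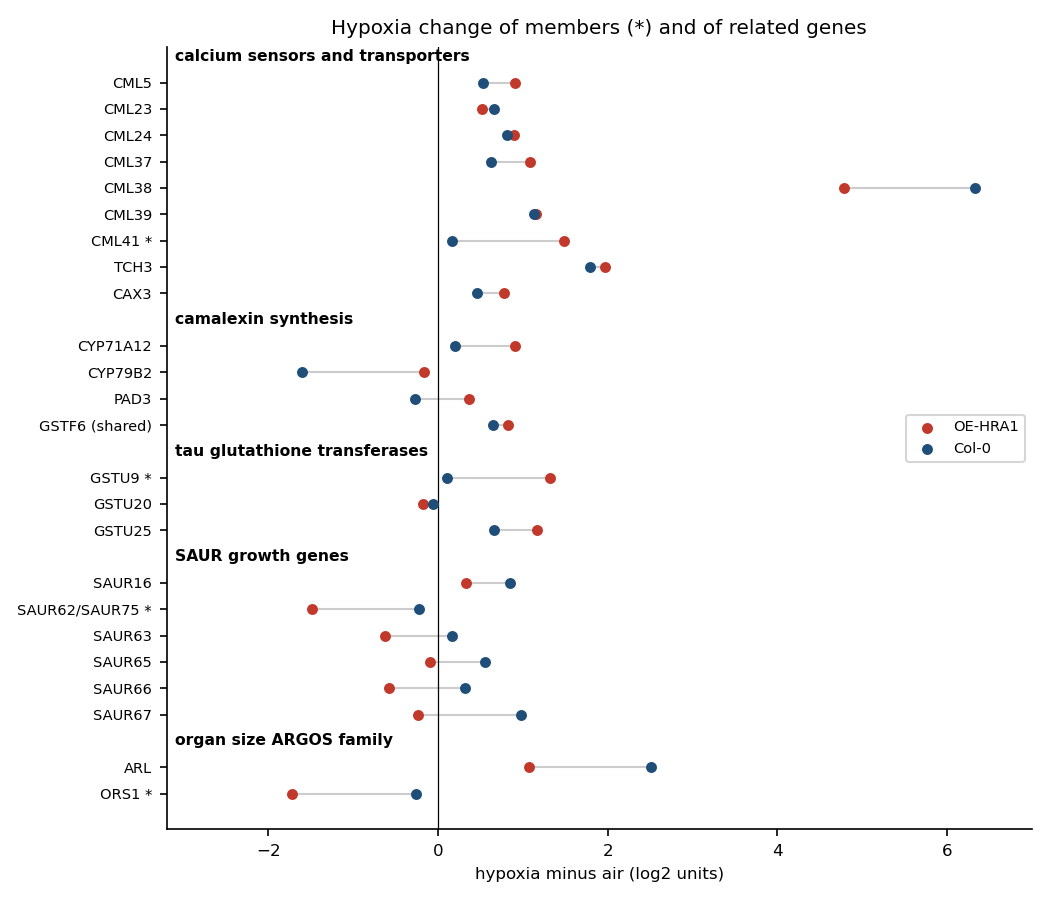
Hypoxia minus air in log2 units (horizontal axis) for members (asterisk) and other measured genes of the same lists (rows), in OE-HRA1 and in Col-0. CML41, GSTU9 and the shared SAUR probe set show a wide gap between genotypes, and so do CML38, ARL, CYP79B2 and SAUR67, which are not members. CML38 and ARL increased less in OE-HRA1 than in Col-0, and CML24, CML39 and TCH3 show almost no gap.

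The 4 falling members with similar levels in both genotypes under hypoxia were AT1G22570, a proton-dependent peptide transporter family member, the cell wall glycoprotein genes AGP3 (AT4G40090) and AT5G19800 (HRGP2), and AT2G41990. AT1G22570 read 7.49 and 7.59 in OE-HRA1 under hypoxia and 8.79 and 8.49 in OE-HRA1 in air, against 7.66 and 7.53 in Col-0 under hypoxia and 8.04 and 7.78 in Col-0 in air. AGP3 read 8.29 and 8.23 in OE-HRA1 under hypoxia and 9.12 and 9.57 in OE-HRA1 in air, against 8.60 and 8.13 in Col-0 under hypoxia and 8.74 and 8.75 in Col-0 in air. The genotypes thus met under hypoxia, at differences of -0.18 (AT5G19800) to 0.07 (AT2G41990), and stood apart in air, by 0.52 (AT5G19800) to 0.73 (AT1G22570). None of these air differences was called by limma, and 6 of the 7 falling members passed an unadjusted p under 0.05 in air, beside 14.6% of all probe sets, on arrays that entered the rule. In Col-0 all 4 had a change of -0.42 to -0.32 with no overlap between treatments, while all 4 were called lower in OE-HRA1. Across the set 5 of 7 had both OE-HRA1 air arrays above both Col-0 air arrays, beside 25.4% of all probe sets.

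For the iron list, 2 of 3 measured genes were called higher under hypoxia in OE-HRA1 and 1 in Col-0. BHLH101, an iron deficiency regulator, had 3.10 in OE-HRA1 and 1.41 in Col-0, and the Col-0 change kept it out of the set. Its interaction of 1.68 (SE 0.40) exceeded that of every rising member but was not called. Of early auxin genes 1 of 4 was called higher in OE-HRA1 and 2 in Col-0, and of growth expansins 1 of 5 was called higher and 1 lower in each genotype. JAZ1 of the jasmonate list (1 of 2) was called higher in both genotypes, and none of 3 aquaporins, 2 heat shock genes or 2 clock genes was called in either, with median SLRs in OE-HRA1 of -1.06, 0.95 and 0.65. Many genes of these and the earlier lists were named through a table of differentially expressed genes. The counts and medians of the lists therefore do not stand for whole pathways.

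The bounds passed through a continuous distribution. Just inside the bound of 1 stood AT1G57630 at 1.02 and UCP5 and AT1G55790 at 1.03, and just outside it 250286_at at 0.996 and AT1G43910 at 0.98. At the Col-0 bound AT5G12940 (0.47) was just inside, and AT1G68450 (0.50), the ubiquitin ligase gene PUB25 (0.52) and AT5G45630 (0.52) were just outside. For the falling set AT2G41990 at -1.04 was just inside and AT2G32450 at -0.99 and PP2-A12 at -0.98 just outside. The aquaporin TIP2;2, with -1.09 in OE-HRA1 and -0.52 in Col-0, missed the Col-0 bound. Probe set 256012_at met both bounds, but its OE-HRA1 arrays overlapped. No filter on low signal was used, and 18 of 24 rising and 3 of 7 falling members had a mean signal below the array median. Among the 60% of probe sets with the highest mean signal, 9 rising members were left, CML41 not among them.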

How the data were processed

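Total RNA of 8 seedling samples was hybridised to Affymetrix ATH1 arrays. According to the methods, the authors made MAS5 present calls, normalised with the robust multichip average (RMA) and tested with LIMMA, and the deposited table holds RMA values on the log2 scale, taken as given. The methods state that rosette arrays of Col-0 and of an HA-tagged RAP2.12 overexpressor were processed along with these arrays, but not whether the deposited values come from that joint run. Array intensities have no count depth, and 2 arrays per group limit the precision. Arrays of a group correlated at 0.994 to 0.997, with a median gap of 0.09 to 0.12 log2 units.

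The rule was applied to all 22746 non-control probe sets. For the model, 64 control and 77 organelle-named probe sets were left out and 22669 were fitted with limma 3.58.1 in R 4.3.3, in a linear model of the 4 group means. The fit had 4 residual degrees of freedom and borrowed 4.13 more from the prior, and p-values were adjusted over all these probe sets by the Benjamini-Hochberg method. Standard errors are those of the moderated model. The OE-HRA1 arrays are paired by transgenic line, with a correlation of 0.15 between deviations from the group means, and Col-0 arrays of a number correlated at 0.37. The model and calls were tested on simulated data.

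A gene name came from the platform annotation (13444 probe sets) or else from the study's table of differentially expressed genes (573), which leaves 8652 without a single gene. Of the rising members 20 had 1 gene name (11 and 9 by source), 1 several and 3 none, and of the falling members 6 had 1 (4 and 2) and 1 several. Gene order was taken from RefSeq (TAIR10.1). Named were the 12 members per set with the largest interaction, every member in a list, the probe sets nearest to a bound, and HRA1; all other members were added for completeness. The members and the 21 gene lists (200 genes) were chosen with earlier results of these data known. Alternatives were median centring, a second quantile normalisation, the top 60% by signal, other bounds, an adjusted p under 0.05, a trend in the prior variance, replicate blocks (the block shared by all groups added after seeing the data) and leaving out each array. Promoter and protein sequences were not used here.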

Additional observations from a re-analysis of the deposited data

Results flagged for a closer look

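CML41 was the 1 rising member with a called interaction, and no falling member had one. Its interaction SLR, the hypoxia effect in OE-HRA1 minus that in Col-0, was 1.33 (SE 0.11, limma), and both OE-HRA1 lines stood above all Col-0 arrays under hypoxia. The gene was chosen by a rule that used these arrays, so the call is not independent evidence that its response differs between the genotypes.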

How the results depend on the processing

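Set sizes followed the bounds. With a Col-0 bound of 0.25 there were 13 rising and 2 falling members, with 0 there were 5 and 1, and with an OE-HRA1 bound of 1.5 there were 3 and 1. With the OE-HRA1 bound met in each line there were 13 and 3, with the Col-0 bound met by both Col-0 hypoxia arrays 12 and 2, and in the top 60% by signal 9 and 7. Leaving out 1 array gave 17 to 46 rising and 7 to 19 falling members. Without the line #1 hypoxia array the rising set held 46, of which 23 were among the 24, and without Col-0 hypoxia replicate 2 it held 41, 20 of them shared. A second quantile normalisation gave 24 and 7, of which 24 and 6 were shared, and median centring 27 and 7, with 23 and 6 shared.

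Of the members as chosen, 4 to 17 rising and 0 to 6 falling ones were called for hypoxia in OE-HRA1 without 1 array, and 7 rising ones in the top 60% by signal. The interaction was called for 0 to 2 rising and 0 to 1 falling members without 1 array, for 0 rising members in the top 60% by signal, and for 1 falling member at an adjusted p under 0.05. With the replicate block within each genotype, hypoxia calls were 18 rising and 7 falling and interaction calls 3 rising and 1 falling, and with the block shared by all groups 14 and 6 and 1 and 0. The interaction of 254385_s_at ran from -0.52 without Col-0 hypoxia replicate 2 to 2.22 without replicate 1. The causes of these shifts were not tested, apart from fewer arrays or probe sets. The table gives no background or detection value, so the limit set by faint signal was not assessed.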
